A study of Mus musculus with 11 samples.

Results

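DNA methylation was examined at 42 genes that normally act in germ cells, in newborn mouse pancreas, at postnatal day 0 (P0). The genes were chosen by name, as germline genes held to be silenced by promoter methylation, with earlier results of these data known. High levels over the set can thus reflect this choice. By symbol, 32 of them were found among the 24391 promoters of the deposited tables, and 37 among 25802 gene bodies. The remaining 10 promoters (Dppa5a, Meioc, Mov10l1, Nanos3, Piwil1, Piwil4, Rec8, Stk31, Stra8 and Syce1) were not analysed here as promoters. All mice were wild type C57BL/6N. The amphetamine group held 5 pups (3 females, 2 males) whose dams were injected with amphetamine at 10 mg/kg on embryonic days 14.5, 15.5 and 16.5, and the control group held 6 pups (3 females, 3 males) of saline-injected dams. The labels do not tie pups to litters, so that pups of 1 dam cannot be told from pups of separate dams, and p-values measure the spread between these pups. The assay was reduced representation bisulfite sequencing (RRBS). It cuts DNA with restriction enzymes, here MspI and TaqI, to enrich for CpG-rich fragments, and bisulfite then converts unmethylated cytosines, which appear as thymine in the reads.

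Germline genes are the classical case of promoters that are silenced by DNA methylation although they carry many CpG sites. In most tissues a CpG-rich promoter stays free of methylation whether or not its gene is used. Promoters of genes for meiosis, the piRNA pathway and germ cell identity instead gain methylation in the embryo after implantation, through the methyltransferase DNMT3B, and repressors that include E2F6, MGA and MAX bind many of them before. They lose this methylation in primordial germ cells, where the genes are then used. In pancreas a high level would thus be usual at a promoter silenced in this way.

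The stretches just upstream of 7 of these genes are shown because the results below turn on them. Hormad1, Mael, Slc25a31, Sycp1 and Sycp3 were highly methylated and carry both of the motifs searched near their starts, Dazl had the smallest p-value after amphetamine, and Tdrkh was of like CpG content but nearly unmethylated. Sequences are from RefSeq (build GRCm38.p6, the same assembly as mm10), cover the 250 bases before the RefSeq gene start, run 5′ to 3′ on the strand of the gene, and have each CpG in capitals.
Hormad1 upstream, chr3:95559427-95559676, forward strand: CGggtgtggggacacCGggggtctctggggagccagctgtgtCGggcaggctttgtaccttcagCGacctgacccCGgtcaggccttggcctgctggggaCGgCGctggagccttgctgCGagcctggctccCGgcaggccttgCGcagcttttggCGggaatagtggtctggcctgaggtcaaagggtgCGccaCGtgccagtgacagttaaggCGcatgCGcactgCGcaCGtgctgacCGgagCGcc
Mael upstream, chr1:166238745-166238994, reverse strand: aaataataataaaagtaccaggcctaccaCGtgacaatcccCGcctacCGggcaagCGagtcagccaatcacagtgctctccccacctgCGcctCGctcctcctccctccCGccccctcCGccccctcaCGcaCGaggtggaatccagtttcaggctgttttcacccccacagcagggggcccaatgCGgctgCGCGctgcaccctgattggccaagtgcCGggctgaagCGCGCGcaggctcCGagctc
Slc25a31 upstream, chr3:40708621-40708870, forward strand: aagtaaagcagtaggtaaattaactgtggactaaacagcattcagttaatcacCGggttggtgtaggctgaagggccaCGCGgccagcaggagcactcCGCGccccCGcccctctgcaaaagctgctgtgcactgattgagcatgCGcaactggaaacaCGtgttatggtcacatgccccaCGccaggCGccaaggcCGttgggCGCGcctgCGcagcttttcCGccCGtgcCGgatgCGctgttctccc
Sycp1 upstream, chr3:102936101-102936350, reverse strand: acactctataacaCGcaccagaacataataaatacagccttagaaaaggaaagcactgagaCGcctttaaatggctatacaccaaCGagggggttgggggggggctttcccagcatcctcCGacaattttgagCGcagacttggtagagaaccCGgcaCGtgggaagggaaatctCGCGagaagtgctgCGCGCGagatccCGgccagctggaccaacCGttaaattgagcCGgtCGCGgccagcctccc
Sycp3 upstream, chr10:88459337-88459586, forward strand: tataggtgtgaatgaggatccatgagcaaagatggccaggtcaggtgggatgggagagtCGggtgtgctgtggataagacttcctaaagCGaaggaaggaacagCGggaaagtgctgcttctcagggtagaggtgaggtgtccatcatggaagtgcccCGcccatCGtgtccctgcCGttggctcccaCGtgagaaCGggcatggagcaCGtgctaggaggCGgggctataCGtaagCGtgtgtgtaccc
Dazl upstream, chr17:50293621-50293870, reverse strand: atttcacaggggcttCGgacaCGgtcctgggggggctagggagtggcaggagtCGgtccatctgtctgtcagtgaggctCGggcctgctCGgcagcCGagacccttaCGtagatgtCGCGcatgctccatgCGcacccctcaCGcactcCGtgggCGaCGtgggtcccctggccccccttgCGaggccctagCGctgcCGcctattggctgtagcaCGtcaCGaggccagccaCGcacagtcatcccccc
Tdrkh upstream, chr3:94412994-94413243, forward strand: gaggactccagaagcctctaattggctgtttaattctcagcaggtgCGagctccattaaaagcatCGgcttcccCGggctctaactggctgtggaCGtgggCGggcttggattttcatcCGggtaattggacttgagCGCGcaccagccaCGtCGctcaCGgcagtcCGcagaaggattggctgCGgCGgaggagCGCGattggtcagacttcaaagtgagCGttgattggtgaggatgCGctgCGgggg
The shown stretches hold 19 CpG sites in Hormad1, 18 in Mael, 18 in Slc25a31, 17 in Sycp1, 12 in Sycp3, 20 in Dazl and 19 in Tdrkh. Tdrkh is therefore as rich in CpG as Hormad1 over these bases. Of the 42 genes, 34 were matched in the RefSeq promoter table, with a median of 14 CpG sites in the 250 upstream bases.

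The motifs searched on both strands were TCCCGC, the core of the site that E2F6 binds, and CACGTG, the E-box that MGA and MAX bind, which can share at most 1 letter. From 250 bases before to 50 after the gene start, CACGTG was found in 12 of 32 germline promoters (37.5%) against 1875 of 23985 promoters in all (7.82%). TCCCGC was found in 12 of 32 (37.5%) against 6209 of 23985 (25.9%), and both in 6 of 32 (18.8%) against 630 of 23985 (2.63%). The genes with both were Ddx4, Hormad1, Mael, Slc25a31, Sycp1 and Sycp3. In Hormad1 the E-boxes begin 57 and 20 bases before the start and the TCCCGC 95 bases before it. In Sycp3 E-boxes begin 64 and 43 bases before the start, and in Slc25a31 1 begins 93 bases before it. Dazl and Tdrkh have neither motif in the bases shown, and Slc25a31 and Sycp1 have CACGTG there but no TCCCGC. Motif and methylation level did not always go together in controls. Meiob (10.1%) carries CACGTG and Tdrd6 (16.5%) carries TCCCGC from 250 bases before to 50 after the start. Asz1 (94.0%) and Sohlh2 (94.2%) carry neither there, and Ddx4, with both, was at 68.0%. A motif match is a description of letters and not a bound site.

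Coverage was higher in the amphetamine group. At the 32 promoters it had a median of 248.8 in amphetamine mice and 242.5 in controls, its sum was 1.25 times as high after amphetamine, and it was the higher of the groups in 26 of 32. Over all promoters the sum was 1.24 times as high. All 11 mice had reads at 28 of the 32, and Dmc1 (3 mice in each group), Lhx8 (4 amphetamine, 5 control), Brdt and Figla (each 4 amphetamine, 6 control) did not. The part of coverage in the results was not tested. Values per mouse were not analysed here beyond the lowest and the highest of each group. RRBS does not measure transcripts, and the methylation of marker genes did not settle the tissue label. In controls the promoter of the acinar cell marker Cela1 was at 90.3%, the measured promoters of islet markers spanned 0.758% (Ppy) to 90.0% (Gcg) over 4 genes, and those of liver markers 2.78% (Apoh) to 90.0% (Fgb) over 4.

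Most of the 32 chosen promoters were methylated in control pancreas. The control mean was at or above 75% in 18 of 32 promoters (56.2%), between 25% and 75% in 10 and under 25% in 4. Over all 24391 promoters, 5750 (23.6%) were at or above 75% and 14851 (60.9%) under 25%. The median was 77.8% over the germline promoters and 8.15% over all. In bulk tissue a level between 0% and 100% can come from some of the cells or from some of the alleles in each cell, and these cannot be told apart.

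The difference from other promoters was widest where CpG is dense. A promoter was called of high CpG density when any 500 bp within it had an observed to expected CpG ratio above 0.75 and a GC content above 55%, of low density when no such stretch had a ratio above 0.48, and of intermediate density otherwise. Of 15 germline promoters of high density, 8 (53.3%) were at or above 75%, with a median of 77.5%. Of all 11869 promoters of high density, 110 (0.927%) were, with a median of 2.57%. At intermediate density the counts were 10 of 15 germline promoters (66.7%) against 2226 of 6645 (33.5%). The 2 germline promoters of low density, Spo11 and Pou5f1, were both between the limits. The germline promoters were no richer in CpG than others, with a median of 57.0 CpG sites in 2000 bp against 58.0 over all promoters.

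**Figure D1:**
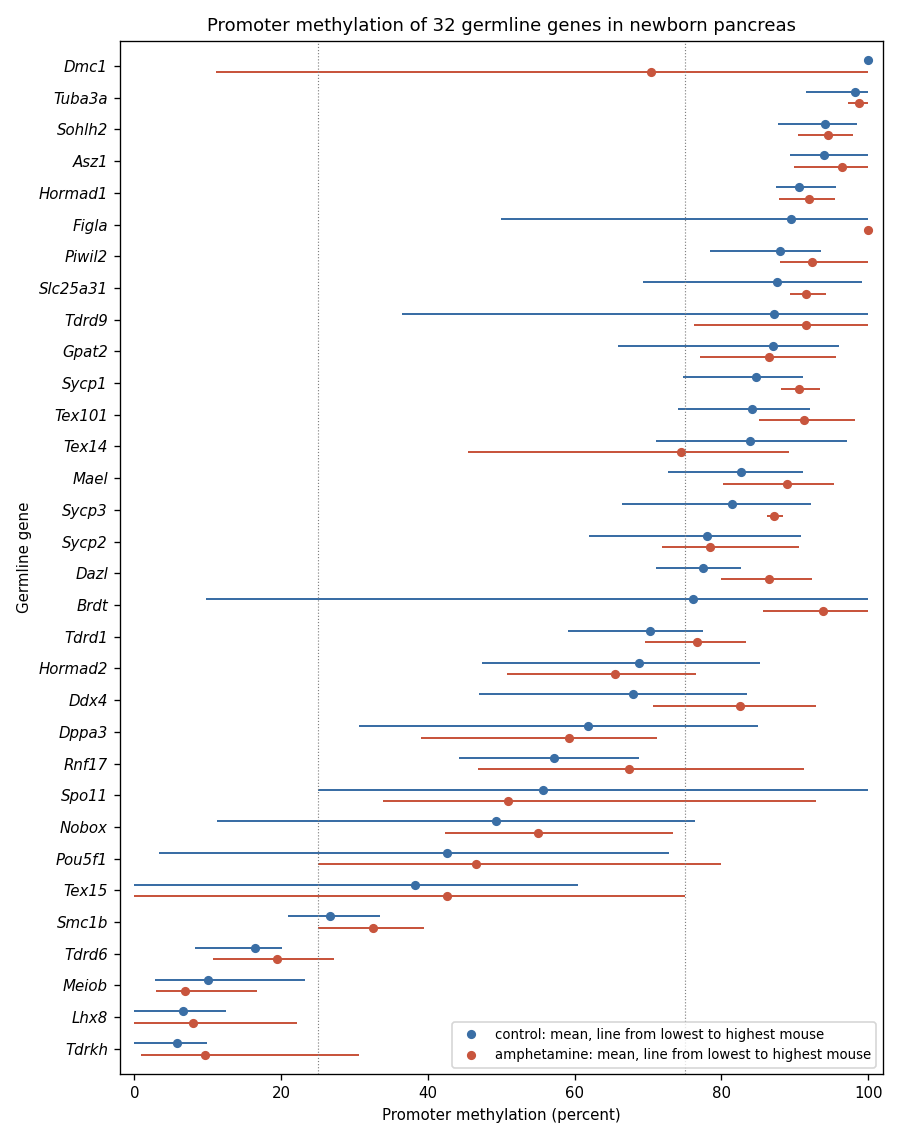
Promoter methylation in percent (horizontal axis) of the 32 germline genes (vertical axis, ordered by the control mean). Points are means of control (blue) and amphetamine (red) mice, lines run from the lowest to the highest mouse, and dotted lines mark 25% and 75%. In controls 18 genes lie at or above 75%, and 4, from Tdrd6 down to Tdrkh, lie under 25%.

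Genes of the synaptonemal complex and the chromosome axis, the protein scaffold that pairs chromosomes in meiosis, were mostly methylated. Of 6 measured promoters, 4 were at or above 75%, and the control median was 79.8%. Hormad1, which marks unpaired chromosome axes, was the highest at 90.6% ± 3.59 (SD, n = 6), with mice from 87.4% to 95.7%. Sycp1, the transverse filament of the complex, had 84.8% ± 6.24 (SD, n = 6), from 74.8% to 91.1%. Its lateral element proteins Sycp3 and Sycp2 had 81.5% ± 9.56 and 78.0% ± 11.4 (SD, n = 6 each). The lowest was Smc1b, the meiotic cohesin subunit, at 26.6% ± 5.21 (SD, n = 6), from 20.96% to 33.5%. No control mouse of Smc1b reached the lowest control mouse of Hormad2 (68.8% ± 12.3, SD, n = 6), whose range was 47.4% to 85.3%.

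The piRNA pathway, which silences transposons in germ cells with small RNAs bound by PIWI proteins, spanned nearly the whole scale. Of its 10 measured promoters, 5 were at or above 75%, 3 between the limits and 2 under 25%. Asz1, a protein of the mitochondrial surface where piRNAs are made, had 94.0% ± 4.89 (SD, n = 6). Piwil2, a PIWI protein, had 88.0% ± 5.90 (SD, n = 6), from 78.5% to 93.6%. The helicase Tdrd9 had 87.2% ± 25.1 (SD, n = 6) at a mean coverage of 51.0, with 1 or more mice as low as 36.5%. Gpat2 had 87.1% ± 11.2 and Mael, needed for transposon silencing, 82.7% ± 6.68 (SD, n = 6 each). The middle group was Tdrd1 (70.3% ± 6.61), Ddx4 (68.0% ± 14.4) and Rnf17 (57.2% ± 9.08; SD, n = 6 each), of which Ddx4 is the helicase Vasa and the others hold Tudor domains. Their ranges overlapped, and their order was not tested.

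The Tudor genes Tdrd6 and Tdrkh were the low end of the pathway. Tdrd6 had 16.5% ± 4.21 (SD, n = 6), from 8.27% to 20.2%. Tdrkh (ENSMUSG00000041912; chromosome 3, 94411796 to 94413795, mm10), which takes part in trimming piRNA ends, had 5.86% ± 3.71 (SD, n = 6), the lowest control mean of the 32, with mice from 0% to 9.92%. These ranges touch, as Tdrd6 begins below the highest Tdrkh mouse. The control level of Tdrkh was above that of 45.8% of all promoters, close to the middle of the series. Among promoters of high CpG density, its own class, it was above 77.0%.

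Genes of spermatogenic cells held the largest share of methylated promoters among the 6 roles, with 5 of 6 at or above 75%. The germ cell tubulin Tuba3a (ENSMUSG00000067702; chromosome 6, 125285543 to 125287542) had 98.2% ± 3.37 (SD, n = 6), with no mouse below 91.6%. Slc25a31, the testis ADP/ATP carrier, had 87.6% ± 10.6 (SD, n = 6). Tex101, a surface protein of germ cells, had 84.2% ± 6.68 and Tex14, a protein of the bridges between germ cells, had 83.9% ± 9.85 (SD, n = 6 each). The bromodomain gene Brdt had 76.2% ± 35.3 (SD, n = 6) with mice from 9.76% to 100% at a mean coverage of 50.3. Tex15 was the exception by class, at 38.3% ± 20.99 (SD, n = 6) with mice from 0% to 60.4%.

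Germline transcription factors ranged from nearly full to nearly absent methylation. Sohlh2, a factor of early oocytes and spermatogonia, had 94.2% ± 4.26 (SD, n = 6), from 87.7% to 98.4%. Figla, an oocyte factor, had 89.5% ± 20.0 (SD, n = 6) at a mean coverage of 32.5. Nobox, another oocyte factor, had 49.3% ± 23.4 (SD, n = 6), from 11.3% to 76.5%. Lhx8 had 6.64% ± 6.13 (SD, n = 5), from 0% to 12.5%. Lhx8 is a LIM homeobox gene that also acts in the developing brain and tooth, and its range overlapped that of Tdrkh.

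Among genes of germ cell identity, the RNA-binding protein Dazl (ENSMUSG00000010592; chromosome 17, 50293100 to 50295099) was the most methylated, at 77.5% ± 4.33 (SD, n = 6), from 71.1% to 82.7%. Its mean coverage of 976.7 was the highest of the 32. Dppa3, which protects methylation in the zygote, had 61.8% ± 20.1 (SD, n = 6). Pou5f1, the pluripotency factor Oct4, had 42.6% ± 23.4 (SD, n = 6), from 3.33% to 72.8%. Control mice of Dppa3 (30.6% to 85.0%) overlapped those of Dazl. Pou5f1 overlapped Dazl only at the extremes, with its highest mouse at 72.8% and the lowest Dazl mouse at 71.1%. The order of these genes was not tested.

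Genes of meiotic recombination did not share a level. Dmc1, the meiotic recombinase, had 100% in each of the 3 control mice with reads, at a mean coverage of 5.50. Spo11, the enzyme that cuts DNA to start recombination, had 55.7% ± 28.6 (SD, n = 6), from 25% to 100%, at a coverage of 47.3. Meiob, which binds single-stranded DNA in meiosis, had 10.1% ± 8.50 (SD, n = 6), from 2.80% to 23.2%. The level of Dmc1 thus rests on few reads, while that of Meiob rests on a mean coverage of 311.5.

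Methylation was high in every control mouse at few of these promoters. Of 30 germline promoters with reads in all 6 controls, 5 (16.7%) had their lowest mouse at or above 75%, namely Tuba3a, Asz1, Sohlh2, Hormad1 and Piwil2. The share was 8.81% over all promoters and 0.431% over those of high CpG density. At 3 promoters (10.0%) every control mouse was under 25%, against 59.6% over all. Mice on both sides of the limits were seen at 2 promoters, Brdt and Nobox, or 6.67% against 3.96% over all. The widest spreads were at promoters of modest coverage. The control SD was above 20 percentage points at 8 promoters (Brdt, Dppa3, Figla, Nobox, Pou5f1, Spo11, Tdrd9 and Tex15), whose mean coverage ran from 32.5 to 105.7 with a median of 54.3, and the other 24 had a median of 282.2, from 5.50 (Dmc1) to 976.7.

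In the median, the methylation of germline gene starts was level with their surroundings. In 5 kb tiles of the control mice, the tile that holds the start had a median of 79.7% over 31 germline genes and 15.1% over 23605 genes, and of 5.09% over genes with a promoter of high CpG density. At 10 kb upstream the medians were 81.6% and 78.7%, and at 10 kb downstream 78.5% and 79.3%. The median over all genes thus dipped at the start, and the germline median did not. The germline 25th percentile was lower there, at 46.0% against 66.1% at 10 kb upstream and 59.5% at 10 kb downstream. Only 20 germline genes had a tile at 10 kb upstream and 14 at 10 kb downstream, so these values do not cover the same genes. Tiles also covered the starts of 6 of the genes without a promoter here. Stra8, which triggers entry into meiosis, had a start tile at 98.6% ± 2.53, Stk31 at 85.4% ± 5.48, Meioc at 82.0% ± 17.2 and Mov10l1 at 69.1% ± 11.4 (SD, n = 6 each). Dppa5a had 88.9% ± 19.3 (SD, n = 3) at a mean coverage of 0.833. Nanos3 had 3.25% ± 4.55 (SD, n = 6), but the start that GENCODE M21 gives, used for this tile, lies 8665 bp from the RefSeq start. For Meioc and Stra8 the start used was that of the deposited gene body, which lies 1869 and 785 bp from the RefSeq start.

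**Figure D2:**
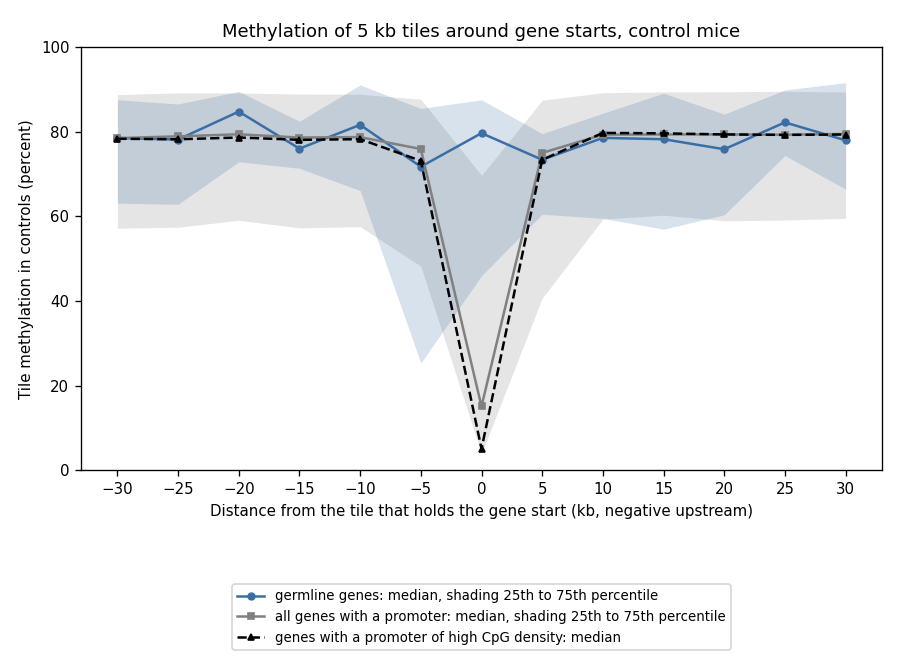
Methylation in percent (vertical axis) of 5 kb tiles of the control mice by distance in kb from the tile that holds the gene start (horizontal axis, negative upstream). Lines are medians over germline genes (blue), all genes with a promoter (grey) and genes with a promoter of high CpG density (black, dashed), and shading runs from the 25th to the 75th percentile. At 0 kb the germline median is 79.7% and that of all genes 15.1%, and 10 kb away both lie close to 80%.

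Of the 32 promoters, 17 (53.1%) overlapped a CpG island of the deposited tables, against 54.0% of all promoters. In controls 8 of the 17 islands (47.1%) were at or above 75%, 4 were between the limits and 5 were under 25%, against 704 of all 14841 islands (4.74%) at or above 75%. An island and the promoter window share reads, so their levels are not independent. For 14 genes both fell in the same class, and for Dazl, Tex15 and Smc1b they did not. The island of Dazl (chromosome 17, 50292685 to 50293791), which begins 192 bp before the gene start and ends 914 bp after it, had 34.8% ± 4.34 (SD, n = 6) where the promoter window had 77.5%. The highest control mouse at the island (38.7%) lay below the lowest at the promoter window (71.1%). The island of Tex15 (chromosome 8, 33517018 to 33517452), which lies 280 to 714 bp downstream of the start, had 1.88% ± 4.25 (SD, n = 6) where the window had 38.3%. At Smc1b the values were 21.4% ± 12.1 (SD, n = 6) and 26.6%, a difference within the spread between mice. The island of Meiob was at 0% in each of its 5 control mice with reads. If reads were independent, their summed coverage of 361 would allow a level of up to 0.831%. Reads are not independent, and this limit leaves out the spread between mice.

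**Figure D3:**
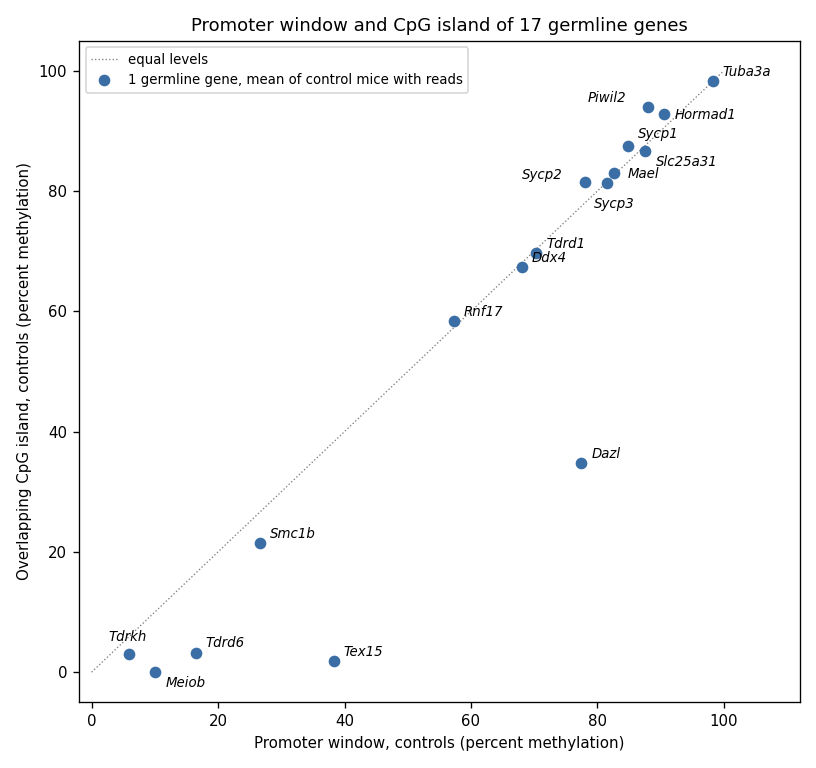
Methylation in percent of the promoter window (horizontal axis) and of the overlapping CpG island (vertical axis) of 17 germline genes, as means of the control mice with reads, with a dotted line where both are equal. Most genes lie close to the line, and Dazl (77.5% and 34.8%) and Tex15 (38.3% and 1.88%) lie well below it.

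Gene bodies of the germline genes were methylated as well, and by less of a margin over other genes. Of 37 gene bodies, 24 (64.9%) had a control mean at or above 75%, with a median of 77.6%, against 29.5% and 52.7% over all gene bodies. Among the 30 genes with both values, the promoter was higher than the body in 15, while it was higher in 20.5% of all genes. A body begins at the gene start and shares its first 500 bp with the promoter window, so their levels are not independent. The body of Sycp2 had the same control values as its island (81.5% ± 13.6, SD, n = 6, at a mean coverage of 244.2). Genes with no promoter here had bodies at 92.6% ± 7.07 (Syce1, of the central element of the synaptonemal complex), 87.3% ± 9.19 (Stra8), 85.5% ± 2.52 (Mov10l1), 84.8% ± 5.61 (Piwil1), 80.1% ± 19.7 (Rec8, the meiotic cohesin) and 71.4% ± 9.87 (Piwil4; SD, n = 6 each). Meioc was listed as Gm1564 and had 63.5% ± 10.2 (SD, n = 6). The largest gaps between promoter and body were at Smc1b (26.6% and 76.7%), Tex14 (83.9% and 35.2%) and Dazl (77.5% and 34.6%).

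After prenatal amphetamine, no germline promoter passed the test. The test was limma's moderated test, two-sided, rebuilt from the mean, SD and number of mice of each group and adjusted by Benjamini-Hochberg over all promoters, and it called 0 of 32 germline promoters at an adjusted p under 0.05 (0.0164% of all 24360 promoters tested). At an unadjusted p under 0.05, 1 of 32 was counted, against 4.11% of all promoters, which is no more than the background share. At none of the 28 promoters with reads in all mice did the groups separate, where 0.228% of all such promoters had every amphetamine mouse above every control and 0.167% the reverse. The difference of means was smaller than the pooled SD between mice at 26 of 32. The class counts were the same in both groups (18, 10 and 4), although Tex14 and Dmc1 had a mean under 75% after amphetamine, and Tdrd1 and Ddx4 had one above it.

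The direction was mostly upward. The amphetamine mean was the higher at 25 of 32 promoters (78.1%), with a median difference of 3.98 percentage points, from -29.6 (Dmc1) to 17.7 (Brdt). Over all promoters 48.6% were higher, and the median difference was 0. Among promoters at or above 75% in controls, 15 of 18 germline ones were higher (83.3%, median 4.11) against 40.6% of all such promoters (median -1.02). Between 25% and 75%, the figures were 7 of 10 (70.0%, median 5.01) and 57.7% (median 2.07). Genes share mice and libraries, so these counts are descriptions of the 11 mice, with coverage higher after amphetamine at 26 of the 32. By role, 9 of 10 piRNA pathway promoters, 5 of 6 of the synaptonemal complex and axis, 5 of 6 of spermatogenic cells and 4 of 4 transcription factors were higher, while 0 of 3 recombination genes were. The promoters of liver markers, by comparison, were lower in 4 of 4 with a median of -17.1 percentage points, and those of islet markers in 2 of 4. The liver count includes Ahsg, with 2 amphetamine mice at a mean coverage of 1.0, and the gene bodies of 6 liver markers had a median of -2.88 percentage points. The part of tissue composition in these shifts was not tested.

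**Figure D4:**
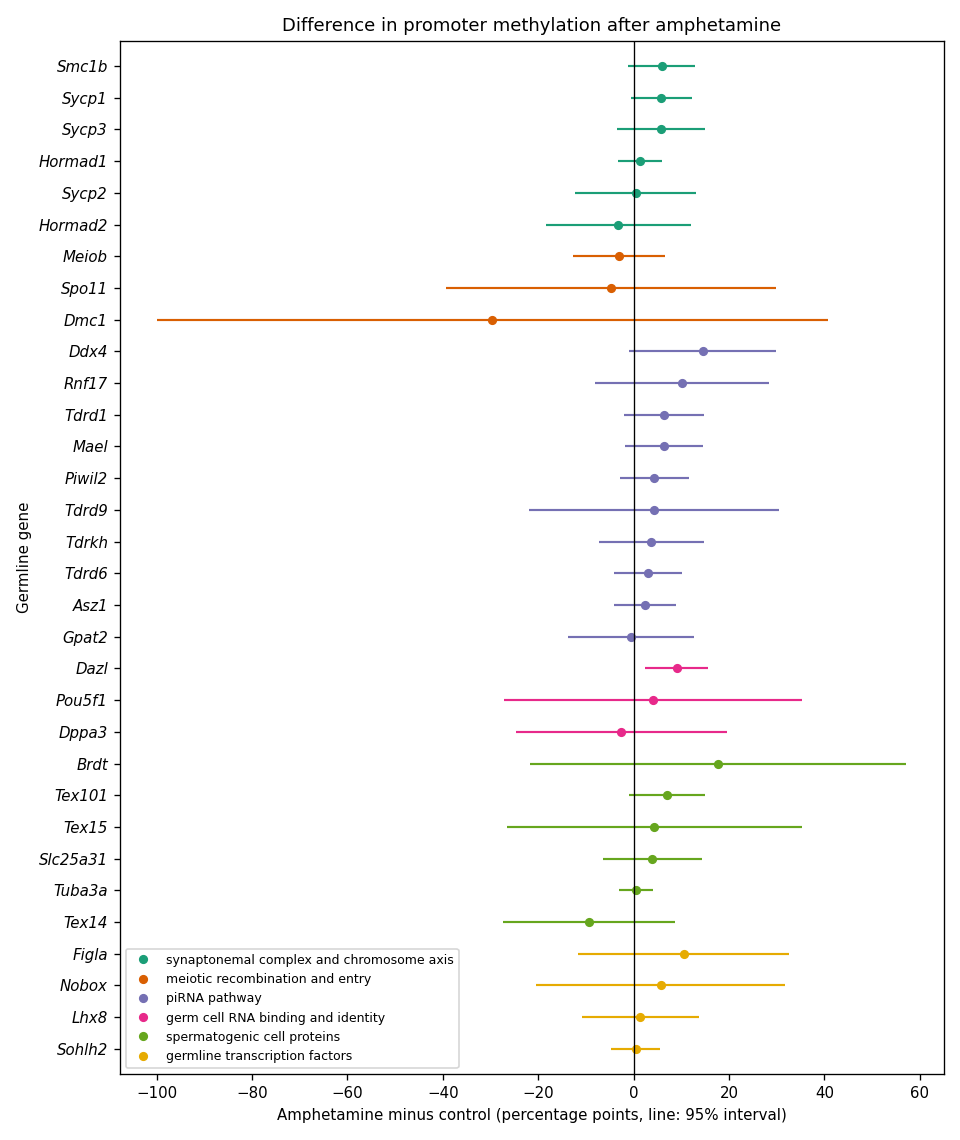
Difference in promoter methylation, amphetamine minus control, in percentage points (horizontal axis) for the 32 germline genes (vertical axis), coloured by role, with lines for the 95% interval of limma's moderated test. The interval of Dazl, from 2.43 to 15.6, does not include 0 and all other intervals do, and 25 points lie to the right of 0.

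Dazl had the smallest p of the germline promoters. It had 86.5% ± 5.79 (SD, n = 5) after amphetamine, with mice from 80.01% to 92.3%, where controls spanned 71.1% to 82.7%. The groups overlapped between 80.01% and 82.7%. The difference was 8.997 percentage points (SE 2.94, 95% interval 2.43 to 15.6), with an adjusted p of 0.958 from limma. Its mean coverage was 976.7 in controls and 1520 after amphetamine.

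Dazl also had the smallest p in the other regions around its start. At the island of Dazl, amphetamine mice spanned 42.7% to 49.6% and controls 27.7% to 38.7%, so the groups did not overlap. The means were 46.9% ± 2.78 (SD, n = 5) and 34.8% ± 4.34 (SD, n = 6), a difference of 12.1 percentage points (SE 2.17, 95% interval 7.27 to 16.9), with an adjusted p of 0.596 from limma over all islands. At the gene body of Dazl (chromosome 17, 50279394 to 50293599) the means were 46.4% ± 3.48 (SD, n = 5) and 34.6% ± 4.18 (SD, n = 6), with an adjusted p of 0.854 from limma. The lowest and highest control values at body and island were equal (27.7% and 38.7%), and the mean control coverage was 654.2 and 658.5, so the body was measured almost wholly within the island. In the 5 kb tile that holds the start the means were 53.0% and 43.2%, with an adjusted limma p of 0.868, and the groups did not overlap either. These regions share reads, so they are 1 observation and not several. Groups that do not overlap, with amphetamine higher, made up 0.325% of all islands, 0.147% of all gene bodies and 0.147% of all tiles with reads in all mice, and Dazl was the single germline gene among them in each.

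**Figure D5:**
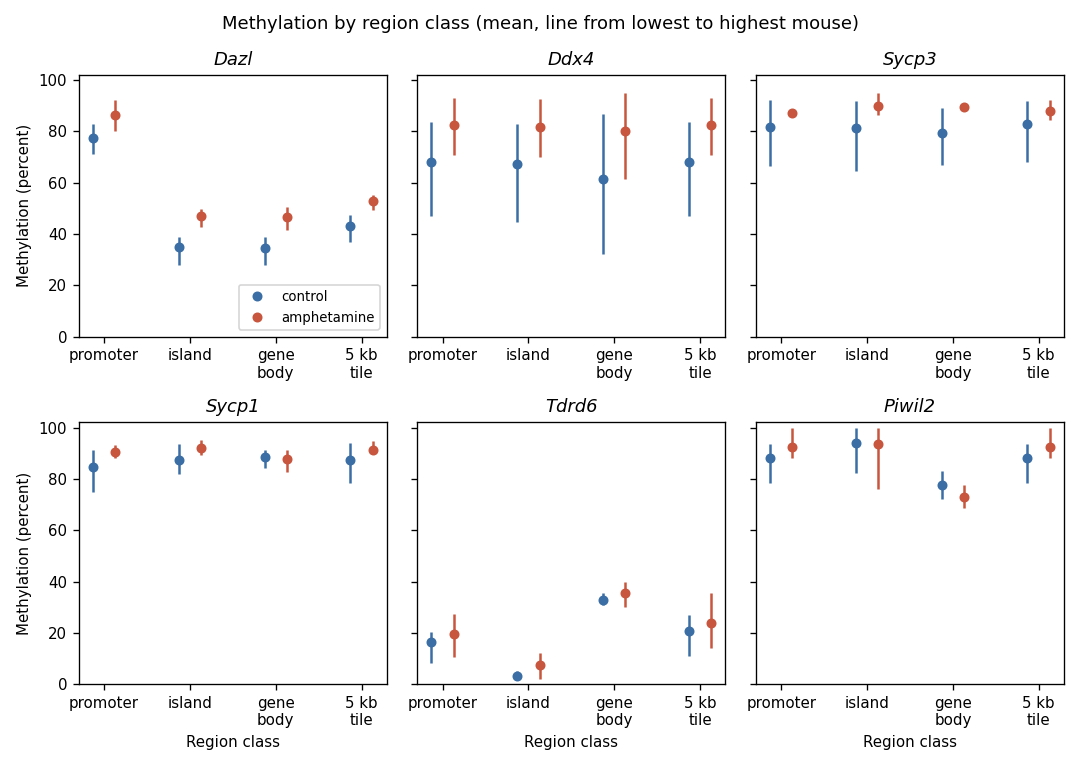
Methylation in percent (vertical axis) of Dazl, Ddx4, Sycp3, Sycp1, Tdrd6 and Piwil2 in 4 classes of region (horizontal axis), as means of control (blue) and amphetamine (red) mice with lines from the lowest to the highest mouse. At Dazl the lines do not overlap in the island, the gene body and the tile, and they do overlap in the promoter, as they do in every region of the other 5 genes.

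The other large differences at promoters were within wide intervals. Ddx4 had 82.5% ± 7.88 (SD, n = 5), from 70.7% to 92.9%, against 68.0% ± 14.4 in controls, a difference of 14.5 percentage points (95% interval -0.997 to 29.9). Its island gave 81.8% and 67.4%, from nearly the same reads. Brdt had the largest upward difference, 17.7 percentage points (95% interval -21.7 to 57.2), because controls reached down to 9.76%. The fit of Brdt leaves out 1 amphetamine mouse without reads. In the 5 kb tile that holds its start the difference was 2.46 percentage points, at a mean coverage of 268.4 after amphetamine and 189.0 in controls. Figla had 100% in all 4 amphetamine mice with reads, against control mice from 50% to 100%. Rnf17 had 67.4% ± 18.5 (SD, n = 5), a difference of 10.2 percentage points (95% interval -8.08 to 28.4).

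At 7 promoters methylation was lower after amphetamine. Dmc1 had 70.4% ± 51.3 (SD, n = 3), with mice from 11.1% to 100% at a coverage of 13.0, and the 95% interval of its difference ran from -99.9 to 40.6 percentage points. The 5 kb tile that holds the start of Dmc1 had reads in all 11 mice. There the means were 80.9% after amphetamine and 79.7% in controls, at a mean coverage of 175.0 and 151.3. Tex14 had 74.5% ± 17.8 (SD, n = 5), from 45.4% to 89.2%, where no control mouse was below 71.2%. Its difference was -9.35 percentage points (95% interval -27.4 to 8.71). Spo11 (-4.73), Hormad2 (-3.23), Meiob (-3.14), Dppa3 (-2.58) and Gpat2 (-0.565) followed, each in percentage points and each within the pooled SD between mice. The spread itself was smaller after amphetamine at 21 of the 30 promoters with reads in all controls (70.0%, against 58.1% over all promoters). At Sycp3 the SD was 0.828 percentage points against 9.56.

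The precision differed among genes. The narrowest interval was that of Tuba3a, at 98.7% against 98.2%, whose difference of 0.515 percentage points had a 95% interval of -3.01 to 4.04. Hormad1 (1.40, -3.24 to 6.04) and Sohlh2 (0.406, -4.68 to 5.49) were as close. For these 3 genes a shift of over 7 percentage points lies outside the interval, whereas for Pou5f1 (4.01, -27.3 to 35.3) and Tex15 (4.36, -26.5 to 35.3) shifts in either direction remain within it.

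At CpG islands and gene bodies no germline region passed the adjusted test either. For islands, 0 of 17 were called (0.0135% of all), and 3 had an unadjusted p under 0.05 (4.1% of all), namely Dazl, Tdrd6 and Sycp1, all higher. The island of Tdrd6 had 7.64% ± 3.94 (SD, n = 5) against 3.14% ± 1.62 (SD, n = 6), a difference of 4.51 percentage points (95% interval 0.751 to 8.27). The island of Sycp1 had 92.2% ± 2.08 (SD, n = 5) against 87.5% ± 4.25 (SD, n = 6), a difference of 4.68 (95% interval 0.194 to 9.16). Of the 17 islands, 13 were higher (76.5%), 3 lower and 1 equal, with a median of 4.68 percentage points, against 48.6% higher and a median of 0 over all islands.

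For gene bodies, 0 of 37 were called (0.0116% of all), and 3 had an unadjusted p under 0.05 (4.38% of all), namely Dazl and Sycp3, higher, and Piwil2, lower. The body of Sycp3 had 89.3% ± 1.02 (SD, n = 5), from 87.8% to 90.6%, against 79.2% ± 8.05 (SD, n = 6), from 67.0% to 88.9%. The difference was 10.0 percentage points (95% interval 2.21 to 17.9), and the groups overlapped. The body of Piwil2 (chromosome 14, 70372480 to 70429094) had 72.8% ± 3.20 (SD, n = 5) against 77.6% ± 3.76 (SD, n = 6), a difference of -4.78 percentage points (95% interval -9.56 to -0.0115). Its promoter was higher by 4.34 percentage points, so body and promoter of Piwil2 did not share a direction. Over gene bodies the upward count was smaller, with 20 of 37 higher (54.1%) and a median of 0.520 percentage points, against 47.9% of all gene bodies.

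Females and males were compared over the same 11 mice, so this comparison is not independent of that of treatment. At promoters 0 of 32 germline genes were called (0.564% of all), and 2 of 32 had an unadjusted p under 0.05 (6.07% of all). Tex15 had 27.7% ± 22.1 (SD, n = 6) in females and 55.4% ± 12.6 (SD, n = 5) in males, a difference of -27.7 percentage points (95% interval -51.6 to -3.79, limma adjusted p = 0.713). Its mean coverage was 83.8 in females and 158.0 in males. Sohlh2 had 92.2% ± 3.67 (SD, n = 6) and 96.9% ± 1.35 (SD, n = 5), with an adjusted limma p of 0.651. At the gene body of Sohlh2 every female (88.2% to 92.1%) lay below every male (94.1% to 95.4%), as in 0.164% of all gene bodies with reads in all mice, with an adjusted limma p of 0.316. Over the 32 promoters 20 were higher in females, with a median difference of 0.482 percentage points. Dazl had 81.7% in females and 81.4% in males.

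Further germline genes outside the 42 were less methylated. Of 36 such genes 23 had a promoter, with 6 (26.1%) at or above 75%, 6 between the limits and 11 (47.8%) under 25% in controls, and a median of 31.6%. Over all promoters 23.6% were at or above 75% and 60.9% under 25%, with a median of 8.15%. The share at or above 75% was thus close to that over all promoters. Tex19.1, a guard against transposons, had 95.1% ± 4.08 (SD, n = 6) and Msh4, of meiotic crossover formation, 94.9% ± 3.86 (SD, n = 5), while Stag3, a meiotic cohesin subunit, had 3.64% ± 3.03 (SD, n = 6). After amphetamine 14 of the 23 were higher and 9 lower, with a median of 0.470 percentage points, and limma called 0 of them (0 at an unadjusted p under 0.05). Of 22 genes of the machinery that places or removes this silencing, 18 had a promoter, of which 17 (94.4%) were under 25% in controls. The promoters of Dnmt3b (5.08% ± 1.60), E2f6 (8.09% ± 3.43) and Uhrf1 (13.8% ± 13.8; SD, n = 6 each) were among them. Tet1, a demethylase, was the exception at 71.0% ± 40.1 (SD, n = 6). Control mice of Tet1 ran from 0% to 100% at a mean coverage of 25.2. Limma called 0 of the 18 after amphetamine, and 1, Tet2, another demethylase, had 3.80% against 1.86% with an unadjusted p under 0.05, where the share over all promoters was 4.11%.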

How the data were processed

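Pancreas DNA of 11 P0 mice was digested with MspI and TaqI and sequenced by RRBS in single-end 50 bp mode, and all libraries carry the same run and lane in the labels. The authors aligned reads to mm10 with Bismark and summarized CpGs per region with RnBeads; versions are not given in the sources used here. The 8 tables deposited by the authors cover promoters, genes, CpG islands and 5000 bp tiles for 2 comparisons. For each group they hold the mean methylation as a fraction, which the authors averaged over mice with reads and which is printed here as a percent, its SD, lowest and highest mouse, and the number of mice without reads. Coverage, deposited by the authors as a mean signal per group, is not normalized for depth and is taken to add up the reads of all CpG sites in a region, which no source states. Reads are not independent molecules, so coverage limits counting error only. The authors' own differences, log2 quotients, p-values, adjusted p-values and ranks were not used.

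Promoters span 1500 bp before to 500 bp after a gene's start. Members were matched by symbol, and islands by an overlap of at least 1 bp. The members, roles, motifs and gene lists were chosen with earlier results of these data known. The 2-group limma test (limma 3.58.1, R 4.3.3, two-sided, no covariate) was rebuilt from means, SDs and numbers of mice, with variances squeezed over all regions with at least 2 mice in each group and Benjamini-Hochberg adjustment over all of them, and was tested on simulated data. The study's further thresholds (a difference above 25 percentage points and a fold above 1.5) were a second rule. Every member could be named, and those described in full were the 5 highest and 5 lowest control means, the 5 largest differences each way, unadjusted p under 0.05, groups that do not overlap, and a promoter and island in different classes. Sites in GRCm38 were counted with Python 3.11.15 and pysam 0.24.0. Of 23985 promoters with a GENCODE M21 identifier, 20009 had the same start there. The windows of Figla and Tex101 start 1020 and 4625 bp from the GENCODE start, at the RefSeq start. Some marker genes are not reported here.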

Additional observations from a re-analysis of the deposited data

How the results depend on the processing

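For treatment and for sex, limma called no germline promoter without squeezing of variances, with a variance trend, at a mean coverage of at least 10 or 50, with reads in all mice, by the study's thresholds, or with gene bodies or start tiles in place of promoters. It called no gene body or island for treatment without squeezing or at a mean coverage of at least 10. With the unadjusted p under 0.05 the counts were 1 promoter for treatment, 2 promoters for sex, 3 gene bodies and 3 islands, where the adjusted p gave 0. With the island in place of the promoter, 8 of 17 germline genes were at or above 75% in controls where the promoters gave 18 of 32, and among those 17 genes 9 promoters were. Limits of 50% and 80% gave 24 and 15 promoters. The median difference after amphetamine stayed between 2.68 and 4.01 percentage points under the 4 alternatives, of which leaving out Dmc1, Figla and Tex101 was added after the data were seen, and the share higher was 79.3% without them. The unadjusted p of the Piwil2 gene body was under 0.05 in the reported fit and above it under all 4 alternatives tried, while those of the Dazl promoter, the Dazl gene body and the Sycp3 gene body stayed under 0.05. Leaving out each mouse in turn was not run, since values per mouse were not analysed here. No paired analysis was possible because the labels number each pup separately and name no litter or batch that pups of both groups share. Depth limits Dmc1 most, with a mean control coverage of 5.50.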
